A study of Mus musculus with 8 samples.

Results

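Serum amyloid A, orosomucoid and related acute phase genes were followed in mouse liver as 10 genes picked by symbol: Saa1, Saa2, Saa3, Saa4, Orm1, Orm2, Orm3, Apcs, Hp and Lcn2. All 10 were found among the 35976 genes of the table, and all 10 were among the 14036 genes that passed the filter on low counts. RNA was sequenced from whole liver of mice on a high fat diet, in 5 libraries of the genotype CTRL and 3 of the genotype OPA1 LKO, in which Opa1 was deleted in hepatocytes. Opa1 encodes the GTPase that fuses the inner mitochondrial membrane. The high fat diet is common to both genotypes, and no library from another diet is in the comparison. In the sources used here, the promoter that drives the deletion, the exons removed and the age and sex of the mice are not stated. The labels do not say that each library is a separate animal, so p-values measure the spread between these libraries, which may be technical in part.

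Acute phase proteins are plasma proteins whose synthesis in hepatocytes shifts during infection, injury or inflammation. Interleukin-6 acts on their genes through STAT3, interleukin-1 and tumour necrosis factor through NF-kappaB, and C/EBP factors bind many of their promoters. SAA1 and SAA2 travel on high density lipoprotein and are the strongly inducible serum amyloids of the liver, SAA3 is also made outside the liver by macrophages and fat, and SAA4 is the constitutive form.

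The promoters of these genes are shown first, because most of these genes hold the same short element there. A promoter here is the 250 bases before the start used in the RefSeq promoter sequences for GRCm38.p6, which held an entry for 8 of the 10 genes. For Saa1, Saa3 and Orm3 this start lies inside the full RefSeq span of the gene. The Saa1 and Orm3 windows are therefore partly within the gene, and the Saa3 window is wholly within it. The motif matches of Saa1 and Saa3 fall inside that span. Both strands were searched for a C/EBP-type motif (TTGCNNAA), an NF-kappaB-type motif (GGNNTTNCC) and a STAT-type motif (TTCNNNGAA). The C/EBP-type motif was found in 7 of the 8, all but Apcs, and in 9.56% of 32851 promoters of the same length. The NF-kappaB-type motif was found in 1 of the 8, Saa3, and in 13.47% of all promoters, and the STAT-type motif in 1 of the 8, Apcs, and in 7.02% of all promoters. A match describes these letters and shows no binding. In the lines below, written 5′ to 3′ on the gene's own strand, capitals mark the motif. The first 8 hold the C/EBP type and the last the STAT type.
Saa1, chr7:46743145-46743172, minus strand: tgtgctcccaTTGCACAAtgagggagaa
Saa2, chr7:46751640-46751667, plus strand: tgtgctcccaTTGCACAAtgagggaaaa
Saa3, chr7:46715758-46715785, minus strand: gtaagtgggaTTATGCAAgatcaaacag
Saa4, chr7:46732831-46732853, minus strand: gaaacTTGCCAAAacacaaacat
Saa4, chr7:46732638-46732665, minus strand: ccaggaaggaTTGAGCAAgagggactct
Orm2, chr4:63362319-63362346, plus strand: agagaacattTTGCGCAAgacatttccc
Orm3, chr4:63356027-63356054, plus strand: agggaacattTTGCACAAgacatttatc
Lcn2, chr2:32387938-32387965, minus strand: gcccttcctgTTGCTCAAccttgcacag
Apcs, chr1:172895280-172895304, minus strand: atcttcTTCTAGGAAagcacagggt

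Saa1 and Saa2 held the same 8 letters at nearly the same distance from the start, at positions -182 to -175 and -183 to -176. Their 250 bases were 94.82% identical, those of Orm2 and Orm3 85.49%, and those of Saa1 and Saa4 46.32%. Orm2 and Orm3 held their matches at -120 to -113 and -121 to -114. Promoters this alike are not independent, so the 7 with the C/EBP-type motif are not 7 separate draws to set against 9.56%. Longer stretches are given for Saa2, the member that fell most, Orm2, and Apcs, the member that rose.
Saa2, chr7:46751583-46751789, plus strand: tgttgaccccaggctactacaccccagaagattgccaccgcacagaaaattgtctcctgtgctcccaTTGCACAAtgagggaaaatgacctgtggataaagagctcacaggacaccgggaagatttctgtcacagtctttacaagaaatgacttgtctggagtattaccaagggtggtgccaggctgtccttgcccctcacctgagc
Orm2, chr4:63362199-63362448, plus strand: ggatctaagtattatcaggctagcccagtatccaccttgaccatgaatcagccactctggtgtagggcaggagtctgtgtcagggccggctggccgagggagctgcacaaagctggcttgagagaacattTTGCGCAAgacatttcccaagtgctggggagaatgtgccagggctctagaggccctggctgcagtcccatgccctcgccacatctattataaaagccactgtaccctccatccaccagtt
Apcs, chr1:172895055-172895304, minus strand: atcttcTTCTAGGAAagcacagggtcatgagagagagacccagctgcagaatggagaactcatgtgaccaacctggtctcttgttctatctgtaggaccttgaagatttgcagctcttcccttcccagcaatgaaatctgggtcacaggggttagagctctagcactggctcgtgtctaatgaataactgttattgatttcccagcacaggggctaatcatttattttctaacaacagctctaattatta

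How well reads can be told apart depends in part on the coding sequences. The untranslated parts of the transcripts, which reads can also cover, were not compared. Saa1 and Saa2 were 95.12% identical over 369 aligned bases, Orm1 and Orm2 89.9%, Orm1 and Orm3 86.06%, and Saa1 and Saa4 65.23%. The longest identical stretches, from coding base 286 to 358 of Saa1 and from coding base 442 to 545 of Orm1, are printed because a read inside them fits both genes.
Saa1 and Saa2, 73 bases: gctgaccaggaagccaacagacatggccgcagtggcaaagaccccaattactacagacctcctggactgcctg
Orm1 and Orm2, 104 bases: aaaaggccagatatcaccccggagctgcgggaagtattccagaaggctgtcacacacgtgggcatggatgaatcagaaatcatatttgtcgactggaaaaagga
Such reads were divided by estimation before deposit, so the split between Saa1 and Saa2, and between the Orm genes, is uncertain. How far depends on the read length, which was not stated in the sources used here. Of windows of 75 bases, a length chosen only as an example, 0 of 295 of the Saa1 coding sequence were also in Saa2 and 30 of 550 of Orm1 were also in Orm2. Sums over each family are therefore given beside the single genes.

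Library totals ranged from 16076404 to 20471271 estimated counts, and genes of the mitochondrial genome took between 11.96% and 26.4% of them. The first 2 principal components held 45.37% and 17.12% of the variance, and CTRL replicate 1 lay apart from every other library on the second, at -58.37. Apoe reached only 133.8 CPM (counts scaled to a common library total) in that library and at least 20760 CPM elsewhere. Opa1 was lower in all 3 OPA1 LKO libraries (24.66 to 34.41 CPM) than in any CTRL library (39.88 to 57.62 CPM), a log2 fold change of -0.63 ± 0.17 (SE) at an adjusted p of 0.0539 in edgeR's quasi-likelihood test with Benjamini-Hochberg adjustment. Whether CTRL replicate 1 has only the genotype on its label was not tested; it is used as labelled, and results that rest on it are given with and without it.

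Of the 10 genes, 5 fell in OPA1 LKO (Saa1, Saa2, Orm1, Orm3 and Hp), 1 rose (Apcs) and 4 did not pass (Saa3, Saa4, Orm2 and Lcn2). Among all genes tested, 6.03% were called, 2.69% as lower and 3.34% as higher (377 and 469 genes). With scaling by library totals alone these counts were 130 lower and 451 higher, the median log2 fold change of all genes moved from -0.03 to 0.12, and 4 of the 10 genes were called. In CPM the OPA1 LKO libraries lay wholly below the CTRL libraries for 7 of the 10 genes and wholly above them for 1, where 8.41% and 8.0% of all genes tested did so. In bulk liver, fewer cells of a type and less RNA per cell cannot be told apart. Without OPA1 LKO replicate 1 none of the 10 passed (1.38% of all genes tested did), and without OPA1 LKO replicate 3 only Orm3 and Apcs did (1.6% of all genes). Without CTRL replicate 1 the number was 8, with Orm2 and Lcn2 added, where 12.2% of all genes passed. Saa1, Saa2 and Orm1 lost the call without OPA1 LKO replicate 1 or 3, and Orm3 without replicate 1 or 2. Their highest edgeR adjusted p in these fits was 0.0711, 0.0578, 0.105 and 0.0931. The signs of the 10 fold changes did not reverse in any alternative run.

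**Figure D1:**
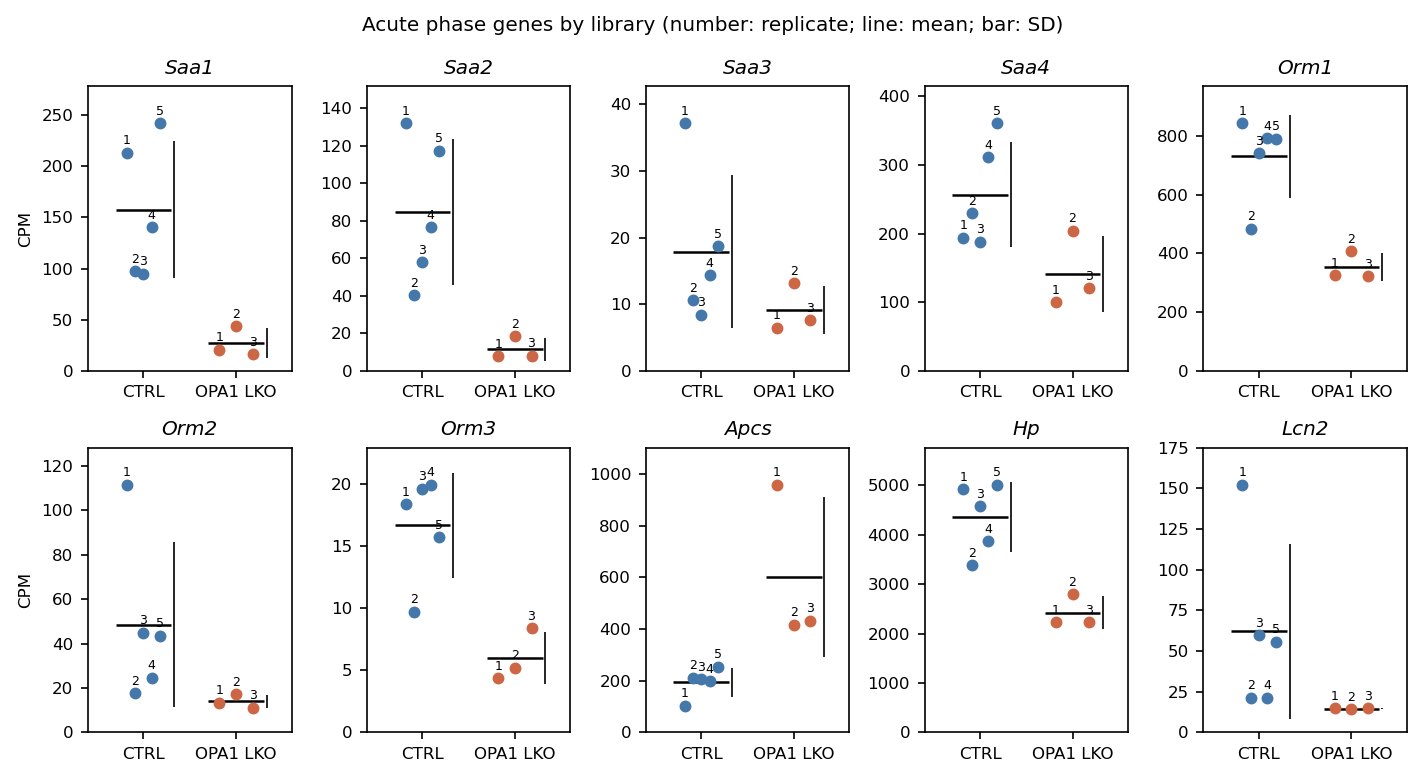
CPM of each of the 10 genes (vertical axes, linear from 0) in the 5 CTRL and 3 OPA1 LKO libraries; points are libraries numbered by replicate, lines are means and bars are SD. The groups overlap only for Saa3 and Saa4, and CTRL replicate 1 is the highest library for Saa2, Saa3, Orm1, Orm2 and Lcn2.

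Saa1 and Saa2, the inducible serum amyloids, fell most among the 10 genes. Saa1 had levels of 213.4, 97.3, 95.22, 140.7 and 242.2 CPM in CTRL replicates 1 to 5 and of 20.85, 43.63 and 16.6 CPM in OPA1 LKO replicates 1 to 3. Every OPA1 LKO library was below every CTRL library, and the highest of them, replicate 2, was at less than the lowest CTRL value of 95.22. On the log2 scale the difference was -2.54 ± 0.44 (SE), and the adjusted p was 0.0122 (edgeR, Benjamini-Hochberg).

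Saa2 had levels of 132.0, 40.4, 57.98, 76.65 and 117.3 CPM in CTRL and of 8.004, 18.66 and 8.082 CPM in OPA1 LKO. The same 2 CTRL libraries, replicates 1 and 5, were the highest for Saa1 and Saa2, and OPA1 LKO replicate 2 was the highest of its group for both. By edgeR the log2 fold change came to -2.87 ± 0.46 (SE), at a Benjamini-Hochberg adjusted p of 0.00892. Summed, which leaves out how their shared reads were split between them, the pair went from 242.6 ± 104.7 CPM (SD, n = 5) to 38.6 ± 20.6 CPM (SD, n = 3), a log2 fold change of -2.65 ± 0.44 (SE). The adjusted p of the sum was 0.0108 (edgeR, Benjamini-Hochberg). An exact two-sided permutation test of the sum over the 56 ways to divide the libraries gave p = 0.0357, the smallest it can give.

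The fall was spread over the main transcripts of both genes. Of Saa1, NM_009117.3 went from 140.6 ± 65.2 to 29.7 ± 19.7 TPM (a level corrected for transcript length) and XM_006540726.3 from 182.2 ± 100.9 to 31.9 ± 18.5 TPM. Of Saa2, NM_011314.2 went from 157.1 ± 89.2 to 24.3 ± 12.4 TPM. The groups did not overlap for any of these 3 transcripts. The share of all transcripts that do so was not counted, and among genes tested 8.41% lay wholly lower in OPA1 LKO in CPM. The division of reads between transcripts is also an estimate. NM_009117.3 made up 43.9% ± 2.34 of the Saa1 TPM in CTRL and 47.1% ± 7.57 in OPA1 LKO, with overlapping groups.

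Saa3 and Saa4 were lower on average, and neither passed the test. Saa4, the constitutive serum amyloid, had levels of 193.9, 229.2, 188.1, 310.9 and 360.7 CPM in CTRL and of 100.3, 204.2 and 120.1 CPM in OPA1 LKO. Only OPA1 LKO replicate 2 reached the CTRL range. This gave a log2 fold change of -0.86 ± 0.29 (SE), which had an adjusted p of 0.116 in edgeR's test (Benjamini-Hochberg).

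Saa3, the serum amyloid that macrophages also make, had levels of 37.18, 10.57, 8.443, 14.41 and 18.73 CPM in CTRL and of 6.51, 13.18 and 7.576 CPM in OPA1 LKO. CTRL replicate 1 stood well above the other CTRL libraries, and the groups overlapped. Its log2 fold change of -0.97 ± 0.46 (SE) had a p of 0.235 by edgeR after Benjamini-Hochberg adjustment, and was -0.51 without CTRL replicate 1.

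The 4 Saa genes together fell from 517.1 ± 158.8 to 189.2 ± 78.8 CPM, a log2 fold change of -1.45 ± 0.32 (SE) with an adjusted p of 0.0292 (edgeR, Benjamini-Hochberg). It did not pass without CTRL replicate 4 or 5 or without OPA1 LKO replicate 1 or 3, where the edgeR adjusted p was 0.0594 to 0.1505. The make-up of the family was compared as well. Saa1 held 45.3% ± 2.52 of the summed Saa TPM in CTRL and 29.5% ± 4.20 in OPA1 LKO, and Saa2 held 26.3% ± 4.13 and 13.7% ± 0.923. Saa4 held 21.7% ± 6.53 in CTRL and 43.1% ± 3.89 in OPA1 LKO, and Saa3 held 6.74% ± 2.41 and 13.8% ± 1.01. None of these 4 shares overlapped between the groups. In the exact two-sided permutation test each gave p = 0.0357, the smallest possible, and 0.0625 after Benjamini-Hochberg adjustment over the 7 shares of the Saa and Orm genes, so none passed. As shares of estimated counts, which are not corrected for length, the means in CTRL and OPA1 LKO were 29.7% and 14.0% for Saa1, 16.04% and 5.96% for Saa2, and 50.9% and 75.3% for Saa4. On that scale the Saa3 groups overlapped (exact permutation p = 0.143).

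**Figure D2:**
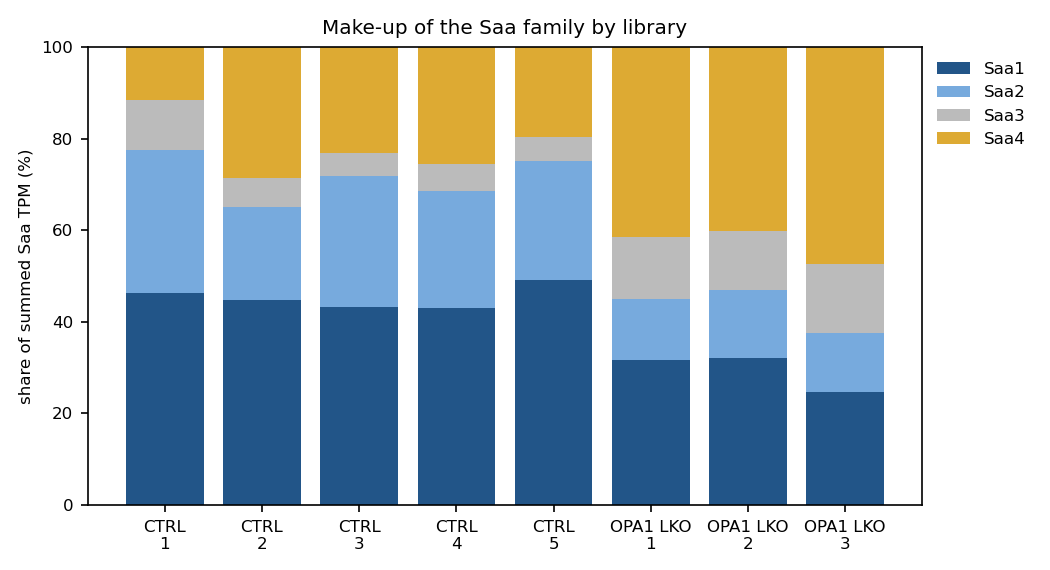
Share of each Saa gene in the summed Saa TPM (vertical axis, percent) for each of the 8 libraries, with the genes stacked. Saa1 and Saa2 together take the larger part in every CTRL library and Saa4 is the largest single share in every OPA1 LKO library, at 40.11% to 47.46%.

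The orosomucoids, which encode alpha-1-acid glycoprotein, a carrier of basic drugs and a modulator of immune cells, were lower as well. Orm1, the most abundant of them, had levels of 843.6, 484.3, 740.9, 793.5 and 790.5 CPM in CTRL and of 326.5, 407.2 and 323.5 CPM in OPA1 LKO. CTRL replicate 2 was well below the other CTRL libraries and still above all OPA1 LKO libraries. On the log2 scale the difference was -1.05 ± 0.21 (SE), and the adjusted p was 0.0184 (edgeR, Benjamini-Hochberg).

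Orm3 had levels of 18.38, 9.719, 19.63, 19.96 and 15.75 CPM in CTRL and of 4.387, 5.217 and 8.405 CPM in OPA1 LKO. Again CTRL replicate 2 was the lowest of its group without reaching the OPA1 LKO range. By edgeR the log2 fold change came to -1.48 ± 0.29 (SE), at a Benjamini-Hochberg adjusted p of 0.0172.

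Orm2 had levels of 111.6, 17.59, 44.97, 24.68 and 43.62 CPM in CTRL and of 13.47, 17.18 and 11.13 CPM in OPA1 LKO. The groups were apart only by the gap between 17.59 and 17.18 CPM, and in TPM they overlapped. The log2 fold change of -1.80 ± 0.54 (SE) did not pass, with an adjusted p of 0.0798 (edgeR, Benjamini-Hochberg). Without CTRL replicate 1 it was smaller, -1.23 ± 0.32 (SE), and passed, with an adjusted p of 0.0365 (edgeR, Benjamini-Hochberg).

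Summed, the Orm genes fell from 795.8 ± 171.2 to 372.3 ± 49.6 CPM, a log2 fold change of -1.10 ± 0.22 (SE) with an adjusted p of 0.0193 (edgeR, Benjamini-Hochberg). Without OPA1 LKO replicate 1 or 3 the edgeR adjusted p was 0.1091 and 0.1035. Orm1 held 92.6% ± 3.33 of the Orm TPM in CTRL and 95.0% ± 0.193 in OPA1 LKO, and the groups overlapped for the share of each of the 3 genes.

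Apcs rose. It encodes serum amyloid P component, the pentraxin that binds amyloid fibrils and is a main acute phase reactant of the mouse. It had levels of 102.9, 211.6, 205.5, 198.0 and 254.0 CPM in CTRL and of 958.2, 416.2 and 431.7 CPM in OPA1 LKO. All 3 OPA1 LKO libraries were above all CTRL libraries, OPA1 LKO replicate 1 furthest, and CTRL replicate 1, high for many of the other genes, was the lowest. This gave a log2 fold change of 1.63 ± 0.33 (SE), which had an adjusted p of 0.0199 in edgeR's test (Benjamini-Hochberg). Without OPA1 LKO replicate 1 it was 1.12, and the adjusted p was 0.105 (edgeR, Benjamini-Hochberg). Crp, the other short pentraxin, had means of 166.2 ± 55.4 and 92.7 ± 31.7 CPM and did not pass, with an adjusted p of 0.126 (edgeR, Benjamini-Hochberg).

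Hp encodes haptoglobin, which binds free haemoglobin in plasma, and was the most abundant of the 10 genes. It had levels of 4924, 3384, 4571, 3863 and 5010 CPM in CTRL and of 2224, 2801 and 2233 CPM in OPA1 LKO, with no overlap. The log2 fold change of -0.85 ± 0.20 (SE) had an adjusted p of 0.0379 (edgeR, Benjamini-Hochberg). This was the call nearest to the threshold, and it passed in 2 of the 8 fits that leave out 1 library, those without CTRL replicate 1 and without CTRL replicate 2. It passed in 4 of the 10 other alternatives. In TPM the Hp groups were apart only by the gap between 2854 (CTRL replicate 4) and 2849 (OPA1 LKO replicate 2).

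Lcn2 encodes lipocalin-2, which binds bacterial siderophores and is made by hepatocytes and neutrophils. It had levels of 152.2, 21.35, 59.88, 21.26 and 55.68 CPM in CTRL and of 14.87, 14.26 and 14.74 CPM in OPA1 LKO. The CTRL libraries ranged widely and the OPA1 LKO libraries were within 1 CPM of each other, below all of them. The log2 fold change of -2.09 ± 0.62 (SE) did not pass, with an adjusted p of 0.0762 (edgeR, Benjamini-Hochberg). Without CTRL replicate 1 it was -1.44 ± 0.38 (SE), with an adjusted p of 0.0367 (edgeR, Benjamini-Hochberg).

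**Figure D3:**
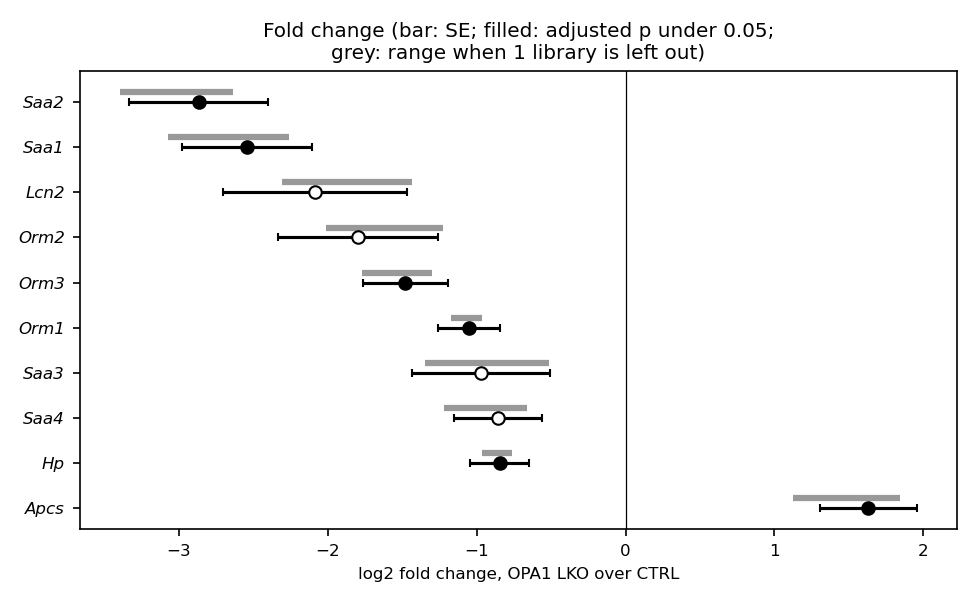
Log2 fold change of OPA1 LKO over CTRL for each gene (horizontal axis), with SE as black bars, filled points for an adjusted p under 0.05 and grey bars for the range when 1 library is left out. The range stays on 1 side of 0 for all 10 genes, with Apcs on the higher side, while the calls themselves change as given in the text.

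Levels between genes were compared in TPM. In CTRL the order of means was Hp (3763 TPM), Orm1 (1198), Saa1 (326.3), Apcs (235.1), Saa2 (191.8), Saa4 (138.6), Lcn2 (97.9), Orm2 (85.4), Saa3 (51.7) and Orm3 (20.3). Only Hp and Orm1, and Orm1 and Saa1, were neighbours whose ranges did not overlap. In OPA1 LKO the order was Hp (2333 TPM), Apcs (838.7), Orm1 (648.1), Saa4 (86.9), Saa1 (62.6), Saa2 (28.9), Saa3 (27.9), Orm2 (26.0), Lcn2 (23.9) and Orm3 (7.84). There the neighbours without overlap were Hp and Apcs, Orm1 and Saa4, and Lcn2 and Orm3. Among all genes ranked by mean TPM, Saa1 moved from place 342 to 1254, Saa2 from 533 to 2238 and Apcs from 467 to 163. Together the 10 genes took 0.4825% to 0.869% of all TPM in CTRL and 0.3186% to 0.4641% in OPA1 LKO. The 0.869% was that of CTRL replicate 1, and the other CTRL libraries reached at most 0.7086%.

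Library-to-library spread was wide for several of these genes. The coefficient of variation in CTRL ran from 16.2% to 86.4% over the 10 genes, where the median over all genes tested was 21.1%. The highest was that of Lcn2, at 152.2 CPM in CTRL replicate 1 and at most 59.88 CPM in the other CTRL libraries. It was not computed without CTRL replicate 1. CTRL replicate 1 was the highest CTRL library for 5 of the 10 genes, Saa2, Saa3, Orm1, Orm2 and Lcn2. In the same library the summed level of 9 macrophage markers was 839.0 CPM, against 173.6 to 378.8 CPM in the other CTRL libraries and 166.6 to 237.0 CPM in OPA1 LKO. Likewise, 12 markers of neutrophils and monocytes summed to 21.93 CPM in CTRL replicate 1, at most 9.802 CPM in the other CTRL libraries and 7.922 to 9.504 CPM in OPA1 LKO. Only 5 of these 12 were highest in CTRL replicate 1, and the largest there were S100a9, S100a8 and Ccr2 (8.125, 5.682 and 5.047 CPM). Ly6g, Mpo, Camp and Ltf were at 0 there and near 0 in every library. The part of macrophages, neutrophils and monocytes in the levels of Saa3, Orm2 and Lcn2 was not tested. Saa1, Saa2, Orm1, Orm3 and Hp still passed without CTRL replicate 1.

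**Figure D4:**
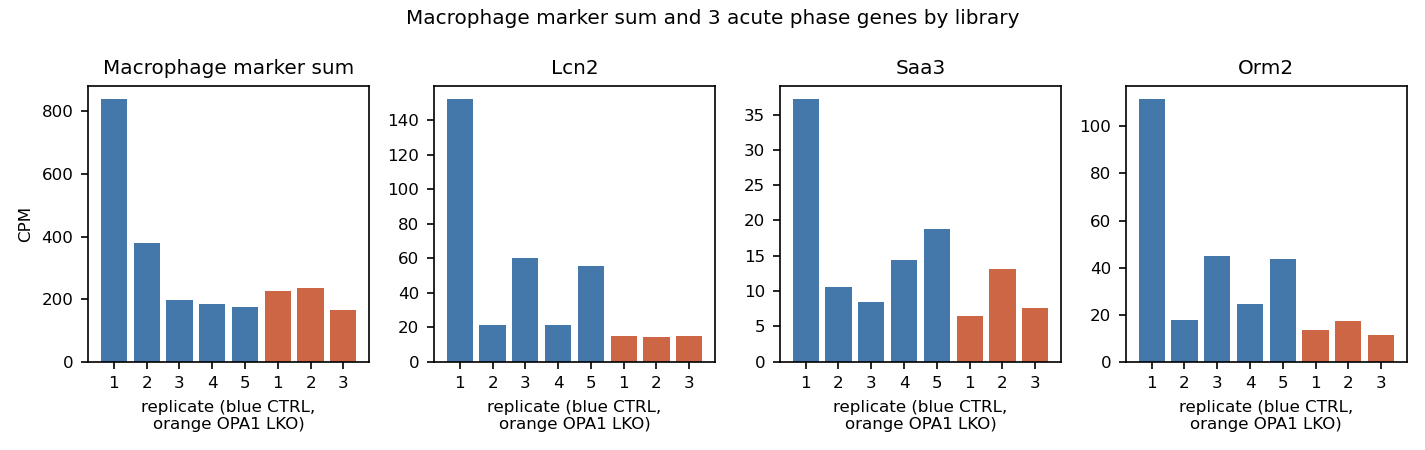
Summed CPM of 9 macrophage markers and CPM of Lcn2, Saa3 and Orm2 (vertical axes, linear from 0) in each library, CTRL in blue and OPA1 LKO in orange. All 4 are highest in CTRL replicate 1, at 839.0, 152.2, 37.18 and 111.6 CPM, while the marker sum is second highest in CTRL replicate 2, where Lcn2 and Orm2 are low for CTRL.

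The other acute phase genes were read from lists. Of 25 tested positive acute phase proteins outside the 10 genes, 2 fell and 0 rose, near the 6.03% of all genes tested, and their median log2 fold change was -0.22, where that of all genes tested was -0.03. Lrg1, a leucine-rich glycoprotein induced in inflammation, fell from 570.5 ± 135.8 to 227.5 ± 40.6 CPM (log2 fold change -1.33 ± 0.22, adjusted p 0.0109 by edgeR with Benjamini-Hochberg adjustment). Lbp, the plasma protein that binds lipopolysaccharide, fell from 93.4 ± 18.8 to 53.6 ± 9.73 CPM (log2 fold change -0.80 ± 0.20, adjusted p 0.0457 by edgeR with Benjamini-Hochberg adjustment). Serpina3n, a protease inhibitor, had means of 280.9 ± 43.6 and 177.6 ± 28.7 CPM and an edgeR adjusted p of 0.0539. At an unadjusted edgeR p under 0.05 there were 10 of the 25, where 23.8% of all genes were. Of these 10, Hamp, Mt1 and Mt2 were higher in OPA1 LKO (edgeR log2 fold changes 1.25, 0.72 and 0.90) and the others lower. DESeq2 called 7 (12.1% of all genes) and limma-voom 3 (6.76% of all genes). The 7 were Lrg1, Lbp, Serpina3n, C4b, Crp and Steap4, all lower by edgeR, and Hamp, which was higher. Without CTRL replicate 1, 4 of the 25 fell (Serpina3n and Serpina3m besides Lrg1 and Lbp) and 1 rose (Cd14), where 12.2% of all genes passed. Of 13 negative acute phase proteins, whose synthesis drops in inflammation, 1 rose and 0 fell. This was Ahsg, which encodes fetuin-A, at 3939 ± 613 CPM in CTRL and 7441 ± 1328 CPM in OPA1 LKO (log2 fold change 0.92 ± 0.20, adjusted p 0.0279 by edgeR with Benjamini-Hochberg adjustment). DESeq2 called 2 of the 13, with Apoa4 added, and limma-voom 1. The median of the 13 was 0.11.

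Upstream of these proteins, the cytokines were scarce. Of 10 cytokine genes 4 passed the filter on low counts and 0 of the 4 passed the edgeR test, while 2, Il1b and Clcf1, had an unadjusted p under 0.05 (23.8% of all genes did) and also passed in DESeq2 (12.1% of all genes), and 0 passed in limma-voom. The lowest adjusted p was that of Il1b, at 2.72 ± 0.889 CPM in CTRL and 0.939 ± 0.510 CPM in OPA1 LKO (edgeR adjusted p 0.0703). Clcf1 went the other way, from 3.17 ± 2.10 to 9.60 ± 3.72 CPM (edgeR log2 fold change 1.59, adjusted p 0.0820). Il6 had 2 counts over all CTRL libraries and 2 over all OPA1 LKO libraries, and Il22 had 0 in all 8. Of 18 receptors and kinases that carry these signals, 0 passed in edgeR, DESeq2 or limma-voom, and their median was -0.02. Jak2, Myd88 and Tnfrsf1a, with log2 fold changes of -0.37, -0.30 and -0.32, were the 3 with an unadjusted edgeR p under 0.05, a smaller share than the 23.8% of all genes.

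Of 15 transcription factors of the acute phase, 2 fell and 0 rose, with a median of -0.03, where edgeR called 6.03% of all genes tested. Cebpa, the C/EBP factor of the resting hepatocyte, fell from 341.2 ± 61.8 to 193.6 ± 23.5 CPM (log2 fold change -0.82 ± 0.18, adjusted p 0.0286 by edgeR with Benjamini-Hochberg adjustment). Foxa2, a liver-enriched forkhead factor, fell from 29.2 ± 7.02 to 14.7 ± 2.72 CPM (log2 fold change -0.99 ± 0.21, adjusted p 0.0233 by edgeR with Benjamini-Hochberg adjustment). Cebpd, a C/EBP factor induced in inflammation, had means of 10.3 ± 4.86 and 24.6 ± 8.47 CPM and an edgeR adjusted p of 0.0765, which missed the threshold. DESeq2 called 4 of the 15 (12.1% of all genes), Cebpd and Nr3c1, the glucocorticoid receptor, besides Cebpa and Foxa2. The same 4 had an unadjusted edgeR p under 0.05 (23.8% of all genes), and limma-voom called 2 (6.76% of all genes). Without CTRL replicate 1, Nr3c1 fell in edgeR as well.

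Of 18 feedback and short-lived cytokine targets 1 rose, the immediate early factor Egr1, from 9.48 ± 4.72 to 37.9 ± 14.4 CPM (edgeR adjusted p 0.0153), and 0 fell. DESeq2 called 3 of the 18, with Cish and Pim1 added (edgeR log2 fold changes -1.63 and -1.11), and limma-voom 1. The median of the 18 was -0.16. Of 15 receptors and clearance genes for the proteins 1 rose, the ferritin receptor Scara5, from 1.31 ± 0.523 to 5.44 ± 1.36 CPM (edgeR adjusted p 0.00782), and 0 fell. DESeq2 called 2 of the 15, with Lrp1 added, and limma-voom 1. The median of the 15 was -0.25. Beside these counts, edgeR called 6.03% of all genes tested, DESeq2 12.1% and limma-voom 6.76%. At an unadjusted edgeR p under 0.05 there were 6 of the 18 and 3 of the 15, where 23.8% of all genes were.

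**Figure D5:**
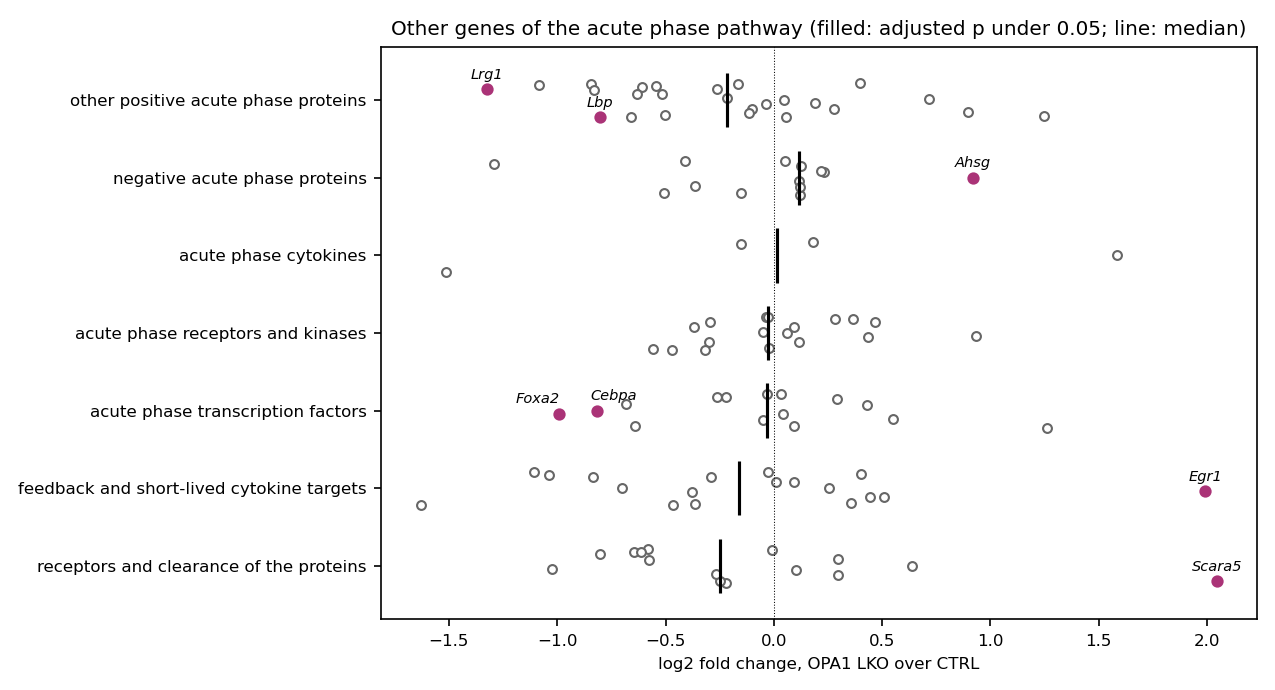
Log2 fold change of OPA1 LKO over CTRL (horizontal axis) for each tested gene of 7 lists of the acute phase pathway, the 10 genes themselves left out; filled points passed an adjusted p of 0.05, lines are list medians and the vertical scatter within a list carries no value. Lrg1, Lbp, Cebpa and Foxa2 lie on the lower side and Ahsg, Egr1 and Scara5 on the higher side, and most genes of each list did not pass.

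Hepatocyte markers were abundant in every library. The 8 markers summed to 61840 to 112100 CPM in CTRL and 74770 to 95690 CPM in OPA1 LKO. Of them Tat and Pck1 rose and 0 fell, where edgeR called 6.03% of all genes tested, 3.34% as higher. Of 9 macrophage markers, 4 tested markers of neutrophils and monocytes, 8 of stellate and endothelial cells and 5 of lymphoid cells, 0 passed the edgeR test. At an unadjusted p under 0.05, which 23.8% of all genes had, the counts were 1 (Timd4), 0, 2 (Reln and Dcn) and 1 (Cd79a). DESeq2 called 1 in all, Timd4, and limma-voom 0, where they called 12.1% and 6.76% of all genes. Of 6 markers of duct and epithelium, Krt7, Sox9 and Spp1 rose, where edgeR called 3.34% of all genes tested as higher. The 6 summed to 17.47 to 69.55 CPM in CTRL and 140.5 to 204.0 CPM in OPA1 LKO. In OPA1 LKO, Spp1 alone was 121.8 to 176.2 CPM. Epcam, Krt19 and Cldn7 did not pass (log2 fold changes 0.96, -0.50 and 0.43), and each was highest in CTRL replicate 3, at 16.77, 22.31 and 6.318 CPM. The part of such cells in the levels of the 10 genes was not tested. Of 5 adipocyte markers only Cfd was tested, with means of 28.9 ± 16.2 and 4.68 ± 3.73 CPM and an edgeR adjusted p of 0.0588. It passed without CTRL replicate 1.

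The Saa genes lie in one cluster on chromosome 7 (46711998 to 46754313, GRCm38.p6) and the Orm genes in one on chromosome 4 (63344556 to 63365877). Of the 6 nearest tested genes around the Saa cluster 0 were called by edgeR, DESeq2 or limma-voom, and 1, Sergef, had an unadjusted edgeR p under 0.05. Hps5, the next gene after Saa2, was at 15.0 ± 2.45 and 14.2 ± 1.16 CPM, and Saal1, next to Saa3, was at 3.88 ± 0.434 and 4.57 ± 0.835 CPM. Of 30 nearest tested genes, 6 around each cluster and around each of Apcs, Hp and Lcn2, 2 were called, where 6.03% of all genes were. Both lay beside the Orm cluster and moved in opposite directions, Kif12 (log2 fold change 2.52 ± 0.39) and Col27a1 (-1.23 ± 0.29).

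Over the 8 libraries, the log2 CPM of the Saa1 and Saa2 sum was followed most closely by Large (Pearson r 0.992), Ept1 (0.974), Herc3 (0.970), H2-T22 (0.969) and Ripk2 (0.966). For the Orm sum they were Cers6 (0.967), Lbp (0.966), Slc17a5 (0.963), Ccser2 (0.961) and 1110028F11Rik (0.961). These were the highest values among the tested genes outside the 10, the 8 points share the difference between the groups, and they are a description only.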

How the data were processed

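Per the labels' protocols, total liver RNA was made into stranded mRNA libraries. Of tools, STAR, RSEM, StringTie and MultiQC are named without versions, and of builds mm10, per the submitters' processing notes. The annotation release was not given in the sources used here. Tables were given per gene and per transcript. They held, per the file headers and values, RSEM expected counts as deposited by the authors, which are not normalised, and TPM as deposited by the authors, corrected for length. RSEM divides reads that fit several genes by estimation.

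Gene expected counts were rounded, genes with low counts removed (filterByExpr, count minimum 10, total minimum 15), scaled by TMM and compared with edgeR 4.0.16 in R 4.3.3, quasi-likelihood test, Benjamini-Hochberg over 14036 genes, adjusted p under 0.05 called. CPM uses TMM-scaled totals; values are mean ± SD, n = 5 CTRL and n = 3 OPA1 LKO, unless an SE is named. Family sums replaced their members in the same test. Permutation tests were exact and two-sided (SciPy 1.17.1). In simulated counts for the same comparison on 14036 genes, 38% of 50 genes changed 2-fold and 88% of 50 changed 4-fold were recovered, with 8 false calls.

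Alternatives were other scalings, no low-count filter, DESeq2 1.42.0, limma 3.58.1 (voom, and log2 of TPM plus 1 or 0.1), a replicate block and each library left out. Named genes were the 10 genes, their sums and the 5 genes most like each of 2 sums. From each list the genes past the threshold or with the smallest p were named. Genes named after their values were seen were the genes next to the clusters, Apoe, Crp, Serpina3m, Cd14, Clcf1, Mt1 and Mt2. So were the genes called by DESeq2 alone, the 3 duct markers that did not pass, Reln, Dcn and Cd79a. The 10 genes and the lists were chosen with earlier results of these data known. Promoter sequences are from RefSeq (GRCm38.p6) and coding sequences from GENCODE M21 transcripts, aligned with Biopython 1.88.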

Additional observations from a re-analysis of the deposited data

Results flagged for a closer look

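Of 14 quantities examined (the 10 genes and 4 sums) in the CTRL group, 1 passed the cut used here for a library far from the others. CTRL replicate 1 did not pass it for any of them. It was still far above the next CTRL library for Orm2 (111.6 against 44.97 CPM) and Lcn2 (152.2 against 59.88 CPM). Orm1 in CTRL replicate 2 was at 484.3 CPM, and the nearest CTRL library was at 740.9 CPM. The gap was 0.714 of the range of the group, against a critical value of 0.71, and chance alone marks about 1 group in 20. The same library was also the lowest of CTRL for Saa2, Orm2, Orm3 and Hp. Without it the log2 fold change of the Orm sum was -1.22 ± 0.17 (SE).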

How the results depend on the processing

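No fold change of the 10 genes or the 2 family sums reversed in any of the 18 alternatives. The number of genes changed (846) was 1692 with DESeq2, 560 with limma on log2(TPM + 0.1), 367 with the replicate block, and 198 to 1701 when 1 library was left out, lowest without OPA1 LKO replicate 1 and highest without CTRL replicate 1. Of the 10 genes, 6 changed in the test as reported, 9 with DESeq2, 2 with the replicate block (Saa1 and Orm3) and 0 to 8 with 1 library left out. The Saa sum (-1.45) did not pass with library totals alone (-1.30) or the replicate block (-1.24), and ranged from -1.85 to -1.26 with 1 library left out, not passing without CTRL replicate 4 or 5 or OPA1 LKO replicate 1 or 3. The Orm sum (-1.10) did not pass with library totals alone (-0.95), limma on log2(TPM + 1) (-0.90) or log2(TPM + 0.1) (-0.90) or the replicate block (-0.998), and ranged from -1.22 to -1.01 with 1 library left out, not passing without OPA1 LKO replicate 1 or 3. The cause was not tested. Libraries with the same replicate number shared little (correlation of deviations 0.072, 0.054 and 0.175), so the numbers were not taken as pairs. List counts without CTRL replicate 1 were added after the data were seen; 4 of 14 lists changed in count: the other positive acute phase proteins (2 to 5), the transcription factors (2 to 3, Nr3c1), the cytokines (0 to 1, Clcf1) and the adipocyte markers (0 to 1, Cfd). The simulated recovery at 2-fold, 38%, came from counts with 50 genes changed at each fold size, where 846 genes were called in the data. Adjusted p depends on how many genes change, so 38% is not a bound for these data. A gene that missed the threshold is not shown to be unchanged.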
